A study of Mus musculus domesticus with 12 samples.

Results

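The DNA replication and S phase genes described here are a named set of 45 mouse genes that license replication origins, open and copy DNA, supply its nucleotides, rebuild chromatin behind the fork and drive entry into S phase. They were chosen by name and not by a rule on measured values, though earlier results of these data were known by then. All 45 were found among the 55385 gene identifiers of the tables, and all 45 passed the filter on low counts that left 17650 genes for testing. They lay on chromosome X and 13 autosomes, with 8 of them on chromosome 5 and 6 on chromosome 8.

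The libraries fall into 3 groups of 4. Lineage-depleted liver cells of C57BL/6J embryos at stage E14.5 received a retrovirus with GFP and a short hairpin RNA (shRNA) against Dis3 (shDis3), against Exosc10 (shExosc10) or against luciferase as the control (shLuc), and grew for 2 days under conditions that expand the erythroid lineage. Dis3 and Exosc10 are the catalytic subunits of the RNA exosome, and the comparisons address how the transcripts of erythroid precursors depend on each. GFP-positive, Ter119-negative cells with intermediate or higher CD71 were then sorted, so every group carried a vector and the cells are a sorted window of early erythroid stages. The labels do not say whether the 4 libraries of a group came from separate embryos or cultures, so each p-value reflects the spread between these libraries alone, which may be technical. In bulk libraries, fewer cells of a type and less RNA per cell cannot be told apart.

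Before S phase, the origin recognition complex, Cdc6 and Cdt1 load the MCM helicase onto DNA. Cyclin E with its kinase and other kinases then start origins, Cdc45 and GINS join the helicase, and the polymerases copy DNA while tethered to the PCNA ring. E2F transcription factors switch on most of these genes at the end of G1. Fetal liver erythroid progenitors divide fast, and in mice their step into differentiation is tied to passage through S phase.

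Library totals ran between 14936200 and 32397204 counts, and the 45 genes together held between 0.509% and 0.706% of each total. Each gene had between 214 and 19366 counts in a library. Against shLuc, the targeted Dis3 had a difference of -1.78 in log2 CPM in shDis3 libraries (SE 0.24, adjusted p = 0.0581, edgeR) and so missed the threshold of 0.05. Its shDis3 values, 24.7 to 52.4 CPM, still lay below all shExosc10 (116.6 to 196.2 CPM) and shLuc values (113.4 to 160.5 CPM). Against shExosc10 the Dis3 difference was -1.90 (SE 0.24, adjusted p = 0.0138, edgeR). Exosc10 was lower in shExosc10 libraries, with a log2 difference of -1.89 against shLuc (SE 0.21, adjusted p = 0.00502, edgeR). Its shExosc10 values, 18.9 to 30.8 CPM, lay below all shDis3 (80.1 to 141.1 CPM) and shLuc values (85.4 to 113.1 CPM). The libraries did not group by shRNA: over the 17605 other genes tested, shLuc replicate 4 correlated best with shDis3 replicate 3 (r = 0.977 across genes), and shExosc10 replicate 1 correlated best with shDis3 replicate 4 (r = 0.967). shDis3 replicate 2 correlated best with shLuc replicate 2 (r = 0.955), and with the other shDis3 libraries at 0.877 to 0.899. All 12 erythroid markers were detected, among them the receptor genes Kit and Tfrc and the transcription factors Gata1 and Klf1, with summed levels in CPM (counts scaled to a common library size) of 1400 to 1788 CPM in shDis3, 1520 to 2749 CPM in shExosc10 and 1398 to 2786 CPM in shLuc libraries. Tfrc alone had 351 to 1412 CPM, and as it encodes CD71, on which the cells were sorted, its detection is no independent sign of cell type. Of the erythroid markers 10 of 12 were below 0 in shDis3 against shLuc, with a median log2 fold change of -0.35 and none called, and their part in the results below was not tested.

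Transcript levels were first ordered in TPM, which corrects for gene length. The highest member by its mean over all libraries was Pcna, the sliding clamp that holds polymerases on DNA, at 206 ± 23.2 TPM in shDis3, 227 ± 30.9 TPM in shExosc10 and 212 ± 61 TPM in shLuc libraries (SD, n = 4). It was followed by 2 subunits of the replicative helicase. Mcm7 stood at 206 ± 63 TPM in shDis3, 154 ± 12.8 TPM in shExosc10 and 163 ± 71.7 TPM in shLuc libraries, and Mcm6 at 164 ± 61 TPM, 148 ± 27.2 TPM and 149 ± 70.5 TPM in these groups. In shLuc libraries the values of these 3 genes overlapped. The lowest member, Gins3, had 6.88 ± 1.45 TPM in shDis3, 6.60 ± 0.73 TPM in shExosc10 and 5.64 ± 2.28 TPM in shLuc libraries. Next above it were E2f1, at 11.3 ± 5.97, 8.93 ± 2.05 and 11.9 ± 4.82 TPM in the same groups, and Pole2, at 13.2 ± 2.5, 13.8 ± 2.26 and 11.8 ± 3.37 TPM.

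Within complexes, the transcripts of the subunits were unequal, and in the 4 complexes plotted the lowest was the same in every library while the highest was not. Mcm4 was the lowest of the 6 MCM helicase transcripts in 12 of 12 libraries, and Mcm7 was the highest in 11, where the highest had 2.38 to 3.47 times the TPM of the lowest. In GINS, a complex of 4 proteins that switches the helicase on, Gins3 was lowest in 12 of 12 libraries and Gins4 highest in 11, with ratios of 3.68 to 7.92. Rfc3 was the lowest of the 5 clamp loader transcripts in 12 of 12 libraries, while the highest was Rfc4 in 7 and Rfc2 in 5. Pola1, which encodes the catalytic subunit, was the lowest of the polymerase alpha and primase transcripts in 12 of 12, with Pola2 highest in 9 and Prim1 in 3. Of the pair Pold1 and Pold2, Pold2 was the higher in 10 libraries. The plot of subunit levels shows this order in TPM. The summed TPM of the 45 genes ran between 1539.9 and 3857.5 over the libraries, a wider range than their share of counts, so the levels of single genes are compared between libraries in CPM below, and TPM is used for ratios of genes within a library and for limma.

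**Figure D1:**
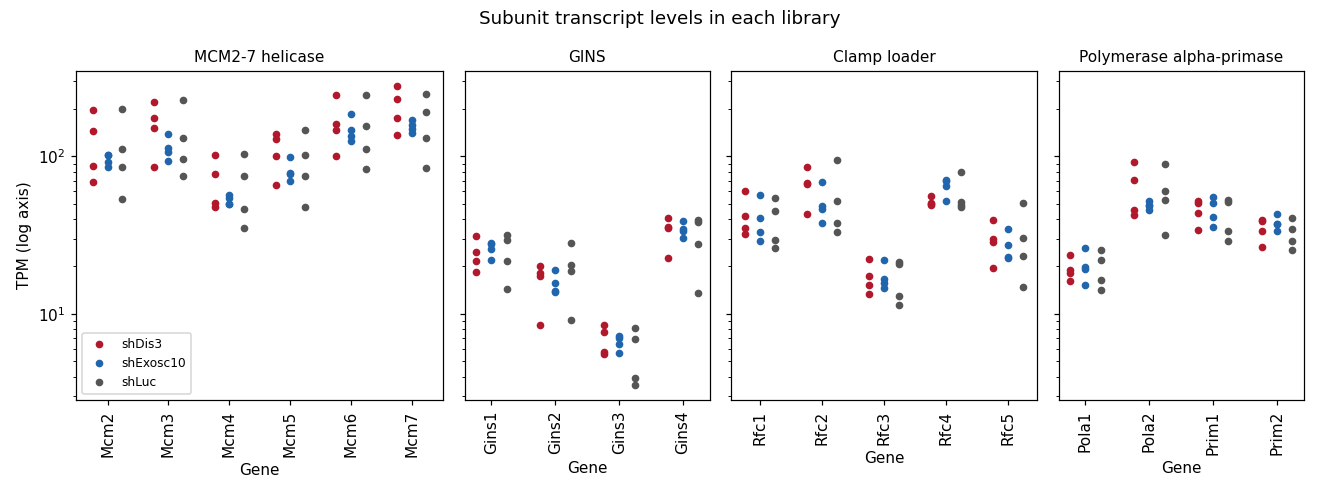
TPM of each subunit transcript (log axis) in 4 complexes, with 1 point per library, shDis3 in red, shExosc10 in blue and shLuc in grey. Gins3 lies below the other GINS subunits and Mcm4 below the other MCM subunits in 12 of 12 libraries each.

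No member passed the test in any of the 3 comparisons. By edgeR's quasi-likelihood test with Benjamini-Hochberg adjustment, 0 of the 45 genes were called at an adjusted p under 0.05 in shDis3 against shLuc, where 0% of all 17650 genes were called in either direction. In shExosc10 against shLuc, 0 of 45 were called, beside 0% of all genes higher and 0.00567% lower. In shDis3 against shExosc10, 0 of 45 were called, beside 0.00567% of all genes in each direction. At an unadjusted p under 0.05, edgeR gave 2 members (Ccne2 and Cdc6, both lower) in shDis3 against shLuc, where 2.01% of all genes were higher and 2.07% lower, 0 in shExosc10 against shLuc, where 0.912% were higher and 1.19% lower, and 2 (Ccne2 and Orc6, both lower) in shDis3 against shExosc10, where 3.18% were higher and 2.79% lower. DESeq2 and limma on log2(TPM + 1) called 0 members in all 3 comparisons, and some members had an unadjusted p under 0.05. By DESeq2 these were 2, 0 and 5 members in the same order of comparisons, or 4.44%, 0% and 11.1% of the 45, beside 5.44%, 3.11% and 8.32% of all genes in either direction. By limma they were 0, 0 and 1, beside 3.41%, 1.2% and 3.63% of all genes. The lowest adjusted p of a member was 0.764 by edgeR, 0.206 by DESeq2 and 0.999 by limma.

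A p above the threshold does not show that the groups were alike, and the intervals say how large a difference the data allow. The 95% interval of the fold change lay within 2-fold for 44 of 45 members in each comparison, beside 86.8%, 87.8% and 83.7% of 6967 genes whose mean level fell in the members' range of 15.3 to 489 CPM, for shDis3 against shLuc, shExosc10 against shLuc and shDis3 against shExosc10. The exception was Ccne2 in both comparisons with shDis3 and Cdt1 in shExosc10 against shLuc. Within 1.5-fold lay 30, 24 and 23 of 45 members, beside 41.6%, 39.2% and 33.6% of those genes. The median within-group SD of log2 CPM was 0.26 for the members and 0.307 for the genes of the same range.

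**Figure D2:**
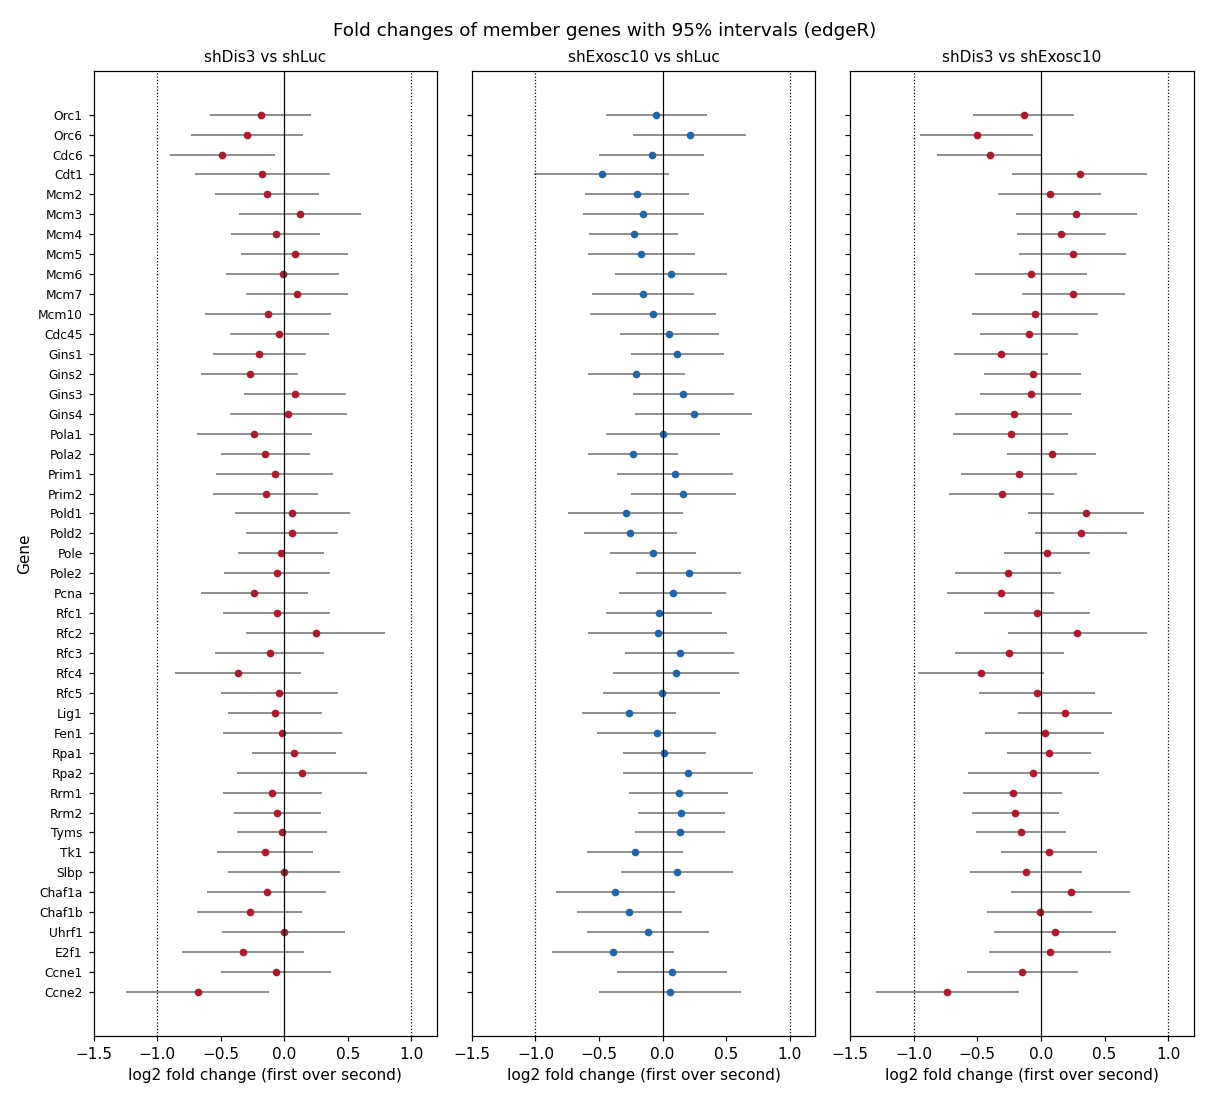
Log2 fold change of each of the 45 genes (points) with its 95% interval from edgeR (lines) for shDis3 over shLuc, shExosc10 over shLuc and shDis3 over shExosc10; dotted lines mark 2-fold. In each panel 44 of 45 intervals stay between the dotted lines.

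The median log2 fold change of the 45 genes was -0.07 in shDis3 against shLuc, with 10 above 0 and 35 below, beside a median of 0.02 and 52.6% above 0 over all genes tested. In shExosc10 against shLuc the median was -0.03, with 21 above 0, beside 0.02 and 52.2% over all genes. The median in shDis3 against shExosc10 was -0.06, with 18 above 0, beside 0.01 and 51.2% over all genes. The comparisons share libraries: shLuc enters the first and the second, shDis3 the first and the third, and shExosc10 the second and the third. The sign against shLuc rested on 1 library. Without shDis3 replicate 2 the median against shLuc was 0.03, with 28 of 45 above 0, beside an all-gene median of -0.07 and 44.3% above 0, and the member median against shExosc10 was 0.08. Without shDis3 replicate 4 the median against shLuc was -0.17, with 5 of 45 above 0, beside 0.05 and 55.4% above 0 over all genes. Against shExosc10 the median was also above 0 without shExosc10 replicate 1, at 0.01. On the log2(TPM + 1) scale the median of shDis3 against shLuc was 0.14 with 37 above 0, but there the median of all genes also stood at 0.11.

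shDis3 replicate 2 was the lowest of the 12 libraries for 30 of 45 members, or 66.7%, beside 27.9% of the 6967 genes in the same range. The next lowest count was that of shLuc replicate 4, which was lowest for 4. As mean log2 CPM over the 45 genes, centred on the 12 libraries, shDis3 replicates 1 to 4 stood at -0.06, -0.41, 0.03 and 0.19, shExosc10 replicates at 0.18, -0.05, -0.03 and -0.05, and shLuc replicates at -0.02, 0.11, 0.08 and 0.03. The shDis3 libraries thus held both the lowest and the highest mean, and the groups overlapped. shDis3 replicate 2 also had the lowest total count, 14936200, and the highest summed level of olfactory receptor genes, 621.6 CPM against 7.0 to 340.5 CPM elsewhere. The part of either in the low member values was not tested. The median coefficient of variation of the members was 23.3% over the 4 shDis3 libraries, 16.2% without replicate 2, 12.9% over shExosc10 and 12.9% over shLuc libraries.

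**Figure D3:**
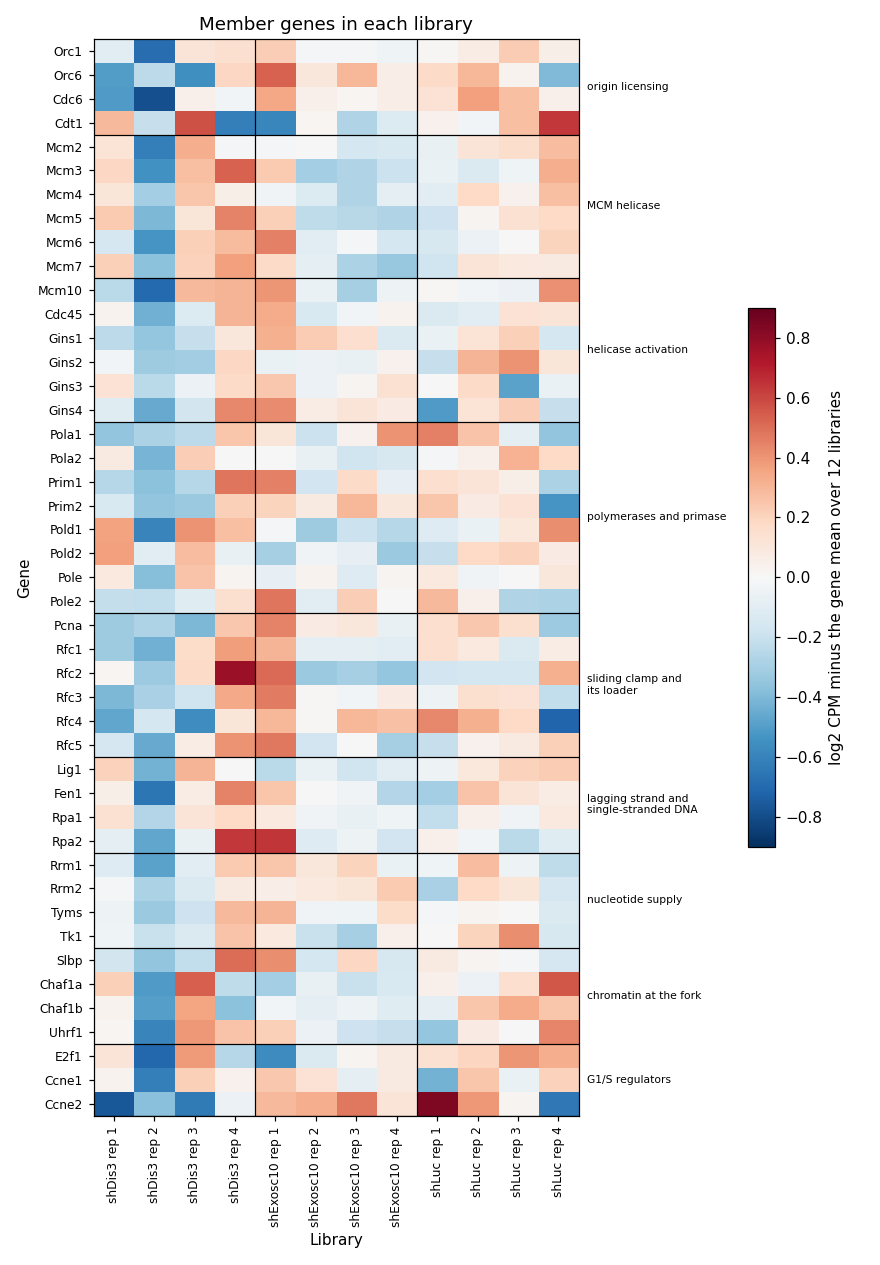
Log2 CPM of each of the 45 genes minus its mean over 12 libraries, by library (columns) and by role (rows), blue for low and red for high. The column of shDis3 replicate 2 is blue for nearly every gene, and the columns of shDis3 replicate 4 and shExosc10 replicate 1 hold the highest value for 10 and 11 genes (22.2% and 24.4%, beside 19.3% and 16.9% of the 6967 genes in the same range).

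The origin licensing genes had 4 of 4 fold changes below 0 in shDis3 against shLuc and none called. Values are given below as normalised CPM for replicates 1 to 4 of each group in order, and fold changes are log2 of the first group over the second, fitted by edgeR. Cdc6 (ENSMUSG00000017499.15, chromosome 11, 98907801 to 98923940, GRCm38) encodes the ATPase that helps load the MCM helicase, and had 66, 54.5, 97 and 92.4 CPM in shDis3 libraries, 119.7, 96.9, 95 and 98.1 CPM in shExosc10 libraries and 103, 122, 114 and 97.3 CPM in shLuc libraries. All 4 shDis3 values were below all 4 shLuc values, but the gap between the highest shDis3 library (97.0 CPM) and the lowest shLuc library (97.3 CPM) was small. Cdc6 was the only member whose shDis3 and shLuc libraries did not overlap, 2.22% of the 45 beside 0.793% of all genes in that direction. No member lay wholly above shLuc in shDis3, beside 0.907% of all genes. The difference was -0.49 (SE 0.19), with a 95% interval of -0.90 to -0.07 and an adjusted p of 1 by edgeR. Against shExosc10 it was -0.40 (SE 0.19).

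Orc6, the smallest subunit of the origin recognition complex (ENSMUSG00000031697.12, chromosome 8, 85299632 to 85308278), had 49.1, 58.9, 47.5 and 79 CPM in shDis3 libraries, 100.3, 74.5, 85.4 and 72.5 CPM in shExosc10 libraries and 78.4, 85.4, 70.8 and 52.7 CPM in shLuc libraries. Replicates 1 to 3 of shDis3 lay below every shExosc10 library, and replicate 4 lay among them. The difference between shDis3 and shExosc10 was -0.50 (SE 0.21) with an interval of -0.95 to -0.06 and an adjusted p of 0.783 by edgeR, and that between shExosc10 and shLuc was 0.21 (SE 0.21). Of the 45 members, 24 overlap another annotated gene, and for Orc6, Gins2 and Rfc4 that gene has the higher mean count. Orc6 overlaps Vps35 on the opposite strand, and the strand setting of the counting is not known, so its count is uncertain. Vps35 itself differed by -0.41 (SE 0.23) between shDis3 and shExosc10.

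Cdt1, the loading factor that is degraded once S phase starts, had 108, 76.6, 132 and 57.9 CPM in shDis3 libraries, 58.9, 89.7, 73.4 and 81.4 CPM in shExosc10 libraries and 90.8, 87, 107 and 138 CPM in shLuc libraries. It was the most variable member within shDis3, with a coefficient of variation of 35%, and the groups overlapped throughout. shDis3 replicate 4 and shExosc10 replicate 1 were the lowest libraries, and shLuc replicate 4 and shDis3 replicate 3 the highest. The difference was -0.48 (SE 0.25) for shExosc10 against shLuc, with an interval of -1.01 to 0.05 that reaches past 2-fold, and 0.31 (SE 0.25) for shDis3 against shExosc10. Orc1, the ATPase subunit that comes and goes with the cell cycle, averaged 29.97 ± 7.14 CPM in shDis3, 32.9 ± 2.86 CPM in shExosc10 and 34.1 ± 2.32 CPM in shLuc libraries (SD, n = 4).

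The 6 MCM helicase genes, whose products form the ring that unwinds DNA, had fold changes between -0.13 and 0.12 in shDis3 against shLuc, and between -0.23 and 0.06 in shExosc10 against shLuc. Their median was 0.03 in the first and -0.16 in the second comparison. Mcm3 had 488, 294, 518 and 619 CPM in shDis3 libraries, 505, 347, 356 and 376 CPM in shExosc10 libraries and 413, 392, 418 and 539 CPM in shLuc libraries. The shDis3 libraries spanned the lowest and the highest values of all 12. The difference was 0.12 (SE 0.22) against shLuc with an interval of -0.35 to 0.60, and without shDis3 replicate 4 it turned to -0.02.

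Mcm6 had 435, 333, 560.0 and 587 CPM in shDis3 libraries, 660.2, 451, 478 and 433 CPM in shExosc10 libraries and 436, 464, 480.2 and 554 CPM in shLuc libraries. Its lowest value was again shDis3 replicate 2 and its highest shExosc10 replicate 1, and the groups overlapped, with -0.01 (SE 0.21) for shDis3 and 0.06 (SE 0.21) for shExosc10 against shLuc. Mcm7 had 372, 248, 371 and 414 CPM in shDis3 libraries, 360.4, 302, 263 and 252 CPM in shExosc10 libraries and 282, 348, 341 and 339 CPM in shLuc libraries. Here 3 shDis3 libraries were above all shLuc libraries and replicate 2 was below them all, giving 0.10 (SE 0.19). Mcm4 had 261, 195, 287 and 250.4 CPM in shDis3 libraries, 237, 222, 201 and 229 CPM in shExosc10 libraries and 227, 274, 248 and 292 CPM in shLuc libraries, with differences of -0.07 (SE 0.16) for shDis3 and -0.23 (SE 0.16) for shExosc10 against shLuc. It was among the 3 steadiest members over all libraries, with a range of 0.58 on the log2 scale.

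The loaded helicase is switched on by the products of 6 genes of the set. Mcm10, a factor needed to start unwinding, had 106, 77, 153 and 155 CPM in shDis3 libraries, 164, 119.8, 102 and 121 CPM in shExosc10 libraries and 126, 123, 120.4 and 166 CPM in shLuc libraries. It was high in shDis3 replicates 3 and 4, shExosc10 replicate 1 and shLuc replicate 4, so each group held high and lower libraries, and the shDis3 against shLuc difference was -0.13 (SE 0.23). Gins4 had 40.1, 31.6, 38.7 and 58.5 CPM in shDis3 libraries, 58.1, 45.4, 47 and 45.6 CPM in shExosc10 libraries and 30.4, 47.1, 50.4 and 37.5 CPM in shLuc libraries. It gave the largest positive fold change of any member in shExosc10 against shLuc, 0.25 (SE 0.21) with an interval of -0.21 to 0.70, and still overlapped between these groups. Gins3, the lowest transcript of the set in shLuc libraries, had 16.5, 12.8, 14.6 and 17.1 CPM in shDis3 libraries, 17.9, 14.6, 15.4 and 16.6 CPM in shExosc10 libraries and 15.2, 17.1, 10.8 and 14.5 CPM in shLuc libraries, and differed by 0.08 (SE 0.19) in shDis3 and 0.16 (SE 0.19) in shExosc10 against shLuc. Cdc45, the third part of the active helicase beside MCM and GINS, averaged 50.4 ± 10.6 CPM in shDis3, 53.7 ± 7.83 CPM in shExosc10 and 51.8 ± 4.91 CPM in shLuc libraries (SD, n = 4). Gins1 differed by -0.20 (SE 0.17) and Gins2 by -0.27 (SE 0.18) in shDis3 against shLuc. Gins2 overlaps Gse1, a gene on the opposite strand with a higher count, so its count is uncertain.

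Among the 8 polymerase and primase genes the fold changes lay between -0.23 and 0.06 in shDis3 against shLuc, and between -0.29 and 0.20 in shExosc10 against shLuc. Pold1, the catalytic subunit of the main lagging strand polymerase, had 99.5, 51.3, 102 and 93.3 CPM in shDis3 libraries, 76.5, 62.1, 67.7 and 64.8 CPM in shExosc10 libraries and 71.5, 74.2, 82.8 and 103 CPM in shLuc libraries. Replicates 1, 3 and 4 of shDis3 exceeded all shExosc10 libraries, while shDis3 replicate 2 was the lowest of the 12. It had the largest positive fold change of shDis3 against shExosc10, 0.36 (SE 0.21) with an interval of -0.10 to 0.81. Its partner Pold2 had 74.9, 54.4, 70.1 and 55.3 CPM in shDis3 libraries, 47.1, 56.7, 55 and 45.9 CPM in shExosc10 libraries and 50.1, 65.7, 67 and 61 CPM in shLuc libraries. The 2 highest libraries were shDis3 replicates 1 and 3, and the difference against shExosc10 was 0.32 (SE 0.17).

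Pole2, an accessory subunit of the leading strand polymerase, had 19.1, 18.9, 20.5 and 24.5 CPM in shDis3 libraries, 31, 20.6, 25.8 and 22.2 CPM in shExosc10 libraries and 27.1, 22.9, 18.3 and 18.2 CPM in shLuc libraries. shExosc10 replicate 1 was highest, the groups overlapped, and shExosc10 against shLuc gave 0.20 (SE 0.19). Pola2, the regulatory subunit of the polymerase that starts each strand together with primase, had 134, 95.2, 148 and 127 CPM in shDis3 libraries, 127, 122, 112 and 115 CPM in shExosc10 libraries and 126, 132, 158 and 144 CPM in shLuc libraries. shDis3 replicate 2 stood lowest, and the difference was -0.15 (SE 0.16) in shDis3 and -0.23 (SE 0.16) in shExosc10 against shLuc. The catalytic subunit of the leading strand polymerase, Pole, averaged 127 ± 22.4 CPM in shDis3, 123 ± 6.14 CPM in shExosc10 and 129 ± 5.83 CPM in shLuc libraries (SD, n = 4). The remaining 3 genes, Pola1, Prim1 and Prim2, differed by -0.23 (SE 0.21), -0.07 (SE 0.21) and -0.15 (SE 0.19) in shDis3 against shLuc.

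In the clamp and clamp loader group, 5 of 6 genes were below 0 in shDis3 against shLuc. Pcna (ENSMUSG00000027342.14, chromosome 2, 132249162 to 132253314) had 261, 270.3, 246 and 388 CPM in shDis3 libraries, 445, 343, 350.4 and 312 CPM in shExosc10 libraries and 363, 387, 361 and 261 CPM in shLuc libraries. Replicates 1 to 3 of shDis3 and shLuc replicate 4 lay between 246 and 270.3 CPM, and every other library was at 312 CPM or above. The difference was -0.23 (SE 0.20) in shDis3 against shLuc, 0.08 (SE 0.20) in shExosc10 against shLuc and -0.32 (SE 0.20) in shDis3 against shExosc10. A pseudogene copy of Pcna is annotated in the mouse, so part of its reads could be divided between near-identical sequences.

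Rfc4 (ENSMUSG00000022881.15, chromosome 16, 23113943 to 23127737), a loader subunit, had 49.5, 61.4, 46.5 and 73.8 CPM in shDis3 libraries, 84.2, 69.1, 84.6 and 82.1 CPM in shExosc10 libraries and 92.5, 85.5, 77.6 and 41.7 CPM in shLuc libraries. Its lowest library was a control, shLuc replicate 4, and the other 3 controls lay above all shDis3 libraries. The difference was -0.36 (SE 0.23) against shLuc and -0.47 (SE 0.23) against shExosc10. Rfc4 overlaps Eif4a2 on the opposite strand, which has several times its count and differed by -0.35 (SE 0.26) in shDis3 against shLuc, so the count of Rfc4 is uncertain. Rfc2 had 76.3, 60.1, 85 and 129 CPM in shDis3 libraries, 107, 59.8, 61.2 and 59.1 CPM in shExosc10 libraries and 66.7, 67.3, 67.3 and 93.9 CPM in shLuc libraries. It was high in shDis3 replicate 4, shExosc10 replicate 1 and shLuc replicate 4, and its difference of 0.25 (SE 0.26) in shDis3 against shLuc, the largest positive one of the set, was -0.0018 without shDis3 replicate 4. The other loader subunits Rfc1, Rfc3 and Rfc5 differed by -0.06 (SE 0.20), -0.11 (SE 0.20) and -0.04 (SE 0.21) in shDis3 against shLuc.

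Of the genes that finish the lagging strand or coat single-stranded DNA, Lig1, the ligase that joins Okazaki fragments, had 236, 152, 253 and 205 CPM in shDis3 libraries, 173, 196, 181 and 192 CPM in shExosc10 libraries and 198, 219, 236 and 239.7 CPM in shLuc libraries. All 4 shExosc10 libraries lay below all 4 shLuc libraries, with 196 CPM as the highest shExosc10 and 198 CPM as the lowest shLuc value. The difference was -0.27 (SE 0.17) with an interval of -0.64 to 0.10. Rpa1, the large subunit of the single-strand binding protein, had 177, 134, 175 and 182 CPM in shDis3 libraries, 171, 158, 154 and 157 CPM in shExosc10 libraries and 139, 166, 158 and 171 CPM in shLuc libraries. It was the steadiest member, with a log2 range of 0.44 over all libraries, and differed by 0.08 (SE 0.15) in shDis3 and 0.01 (SE 0.15) in shExosc10 against shLuc.

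Rpa2, its middle subunit, had 54.5, 41.8, 55.5 and 90.2 CPM in shDis3 libraries, 90.7, 53.5, 56.3 and 51.5 CPM in shExosc10 libraries and 59.9, 57, 49.1 and 53.7 CPM in shLuc libraries. It was high in shDis3 replicate 4 and shExosc10 replicate 1 and lower in every other library. The difference of 0.14 (SE 0.24) in shDis3 against shLuc turned to -0.12 without shDis3 replicate 4. Fen1, the nuclease that trims Okazaki fragments, averaged 159 ± 46.5 CPM in shDis3, 156 ± 22.8 CPM in shExosc10 and 161 ± 25.4 CPM in shLuc libraries (SD, n = 4).

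For nucleotide supply, ribonucleotide reductase makes the DNA building blocks. Its large subunit gene Rrm1 had 365, 284, 372 and 467 CPM in shDis3 libraries, 471, 426, 457 and 381 CPM in shExosc10 libraries and 386, 479.9, 385 and 338 CPM in shLuc libraries, and the small subunit gene Rrm2 had 259, 214, 238 and 276 CPM in shDis3 libraries, 271, 277, 281 and 306 CPM in shExosc10 libraries and 213, 295, 281 and 235 CPM in shLuc libraries. The groups overlapped for both. Rrm1 differed by -0.09 (SE 0.18) in shDis3 and 0.13 (SE 0.18) in shExosc10 against shLuc. Rrm2 differed by -0.05 (SE 0.16) and 0.15 (SE 0.16) in the same comparisons. In TPM the ratio of Rrm1 to Rrm2 stayed between 0.86 and 1.42 over the libraries. Tyms, which makes thymidylate, differed by -0.02 (SE 0.17), and Tk1, which salvages thymidine, by -0.15 (SE 0.18) in shDis3 against shLuc.

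Behind the fork, chromatin is rebuilt with new histones. Chaf1a (ENSMUSG00000002835.9, chromosome 17, 56040439 to 56072289), the large subunit of the assembly factor CAF-1, had 143, 86.5, 179 and 105 CPM in shDis3 libraries, 99.5, 118, 107 and 112 CPM in shExosc10 libraries and 127, 119, 137 and 181 CPM in shLuc libraries. The 4 shExosc10 libraries were all below the 4 shLuc libraries, while the shDis3 libraries spread over nearly the whole range. Its difference of -0.37 (SE 0.22) in shExosc10 against shLuc had an interval of -0.84 to 0.10. Slbp, which binds the end of histone mRNA, had 132, 115, 126 and 209 CPM in shDis3 libraries, 197, 132, 168 and 134 CPM in shExosc10 libraries and 156, 150.2, 146 and 133 CPM in shLuc libraries, and was high in shDis3 replicate 4 and shExosc10 replicate 1, with differences of -0.0041 (SE 0.21) in shDis3 and 0.11 (SE 0.21) in shExosc10 against shLuc. The smaller CAF-1 subunit gene Chaf1b averaged 29.5 ± 8.12 CPM in shDis3, 29.7 ± 0.84 CPM in shExosc10 and 35.6 ± 4.38 CPM in shLuc libraries. Uhrf1, which guides the copying of DNA methylation, averaged 272 ± 73.7 CPM, 252 ± 35.6 CPM and 274 ± 61.2 CPM in these groups (SD, n = 4).

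Among the G1/S regulators, E2f1 (ENSMUSG00000027490.17, chromosome 2, 154559407 to 154569892), a transcription factor that activates many of the other members, had 33.5, 19, 40.4 and 25.9 CPM in shDis3 libraries, 20.9, 28.3, 31.4 and 32.8 CPM in shExosc10 libraries and 33.9, 35.4, 40.6 and 38.8 CPM in shLuc libraries. All 4 shExosc10 libraries lay below all 4 shLuc libraries, with 32.8 CPM as the highest shExosc10 and 33.9 CPM as the lowest shLuc value. The differences were -0.39 (SE 0.22) in shExosc10 and -0.32 (SE 0.22) in shDis3 against shLuc. With Lig1 and Chaf1a, this made 3 of 45 members, 6.67%, whose shExosc10 libraries lay wholly below the controls, beside 1.46% of all genes. No member lay wholly above them, beside 1.02% of all genes. None of the 3 was called by edgeR, with an adjusted p of 1 for each.

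Ccne2 (ENSMUSG00000028212.16, chromosome 4, 11191351 to 11204779), cyclin E2, an activator of the kinase that fires origins, had the widest range of the set, 1.60 on the log2 scale. It had 38.8, 50.6, 42.3 and 63.5 CPM in shDis3 libraries, 80.4, 82.7, 91.6 and 71.1 CPM in shExosc10 libraries and 118, 86.1, 66.9 and 42.2 CPM in shLuc libraries. All shDis3 libraries lay below all shExosc10 libraries, and Ccne2 was the 1 member of 45 (2.22%) with that pattern, beside 1.8% of all genes. No member had the opposite pattern, beside 1.91% of all genes. Against shLuc the groups overlapped, since shLuc replicate 4 stood among the shDis3 libraries while shLuc replicate 1 was the highest of all. The difference was -0.74 (SE 0.26) against shExosc10, with an interval of -1.30 to -0.18 and an adjusted p of 0.764 by edgeR, and -0.68 (SE 0.26) against shLuc, with an interval of -1.24 to -0.12 and an adjusted p of 1. Without shLuc replicate 1 the difference against shLuc was -0.41, and without shLuc replicate 4 it was -0.89 (SE 0.24, adjusted p = 0.0926, edgeR). It overlaps Ints8 on the opposite strand, which differed by -0.04 (SE 0.16) in shDis3 against shLuc and -0.20 (SE 0.16) in shDis3 against shExosc10.

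The other E cyclin gene, Ccne1, differed by -0.07 (SE 0.20) in shDis3 and 0.08 (SE 0.20) in shExosc10 against shLuc. In TPM, Ccne1 was above Ccne2 in shDis3 replicates 1 and 3 and in shLuc replicate 4, with ratios of 1.56, 1.55 and 1.72, and below it in the other 9 libraries, down to 0.34 in shLuc replicate 1.

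**Figure D4:**
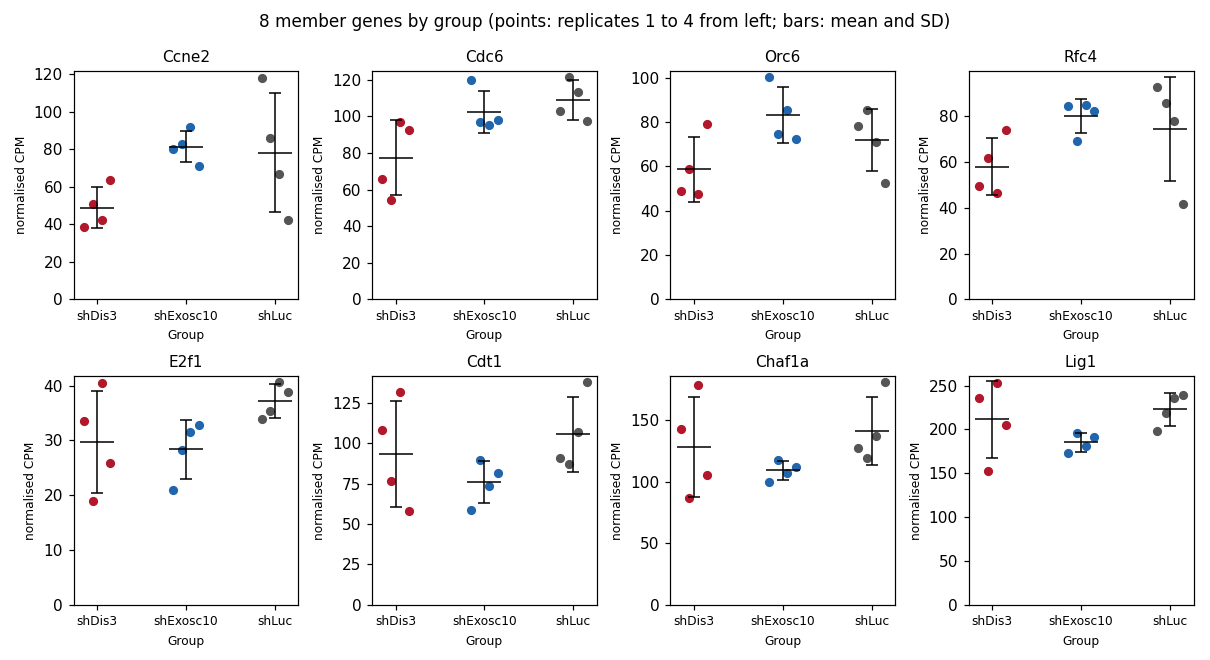
Normalised CPM of 8 of the genes in each library, with shDis3 left, shExosc10 in the middle and shLuc right, replicates 1 to 4 from left within a group, and bars for mean and SD (n = 4). Ccne2 ranges between 38.8 and 63.5 CPM in shDis3 libraries and between 71.1 and 91.6 CPM in shExosc10 libraries, while shLuc libraries span 42.2 to 118 CPM.

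The calls for Ccne2 and Rfc4 depended on which libraries entered. When shLuc replicate 4, shDis3 replicate 4 and shExosc10 replicate 1 were left out together, leaving 3 libraries a group and 19126 genes, Ccne2 fell by 1.04 on the log2 scale (SE 0.21, adjusted p = 0.01, edgeR) and Rfc4 by 0.70 (SE 0.17, adjusted p = 0.0315, edgeR) in shDis3 against shLuc. These were 2 of 45 members, 4.44%, beside 1.19% of all genes lower in that fit, and 0 of 45 were higher, beside 2.85%. In shDis3 against shExosc10, Ccne2 was the 1 member called (log2 fold change -0.92, adjusted p = 0.0255, edgeR), 2.22% beside 1.2% of all genes lower and 2.02% higher. In shExosc10 against shLuc 0 of 45 were called, beside 0.0105% of all genes higher and 0.00523% lower. No rule for choosing these 3 libraries is given here. Of them, shLuc replicate 4 held the lowest and shDis3 replicate 4 the highest Ccne2 and Rfc4 value of its own group. Leaving them out therefore widened both differences between shDis3 and shLuc. With the 3 clusters of similar libraries as a factor instead, Ccne2 differed by -0.27 (SE 0.25) and Rfc4 by -0.09 (SE 0.25) in shDis3 against shLuc. No member was called in that fit. Of these clusters, 1 held shLuc replicate 1 alone, so that library did not enter the group differences. It had the highest Ccne2 (118 CPM) and Rfc4 (92.5 CPM) values of the controls. shDis3 replicates 1, 3 and 4 shared a cluster with shExosc10 replicate 1 and only 1 control, shLuc replicate 4. shDis3 replicate 2, which stayed in the fit without 3 libraries, clustered with shExosc10 replicates 2 to 4 and shLuc replicates 2 and 3.

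Markers of other blood cells also differed between these libraries. The 12 megakaryocyte markers summed to 310 to 369 CPM in shDis3, 130 to 323.2 CPM in shExosc10 and 76.7 to 418.4 CPM in shLuc libraries. The highest shExosc10 sum was that of replicate 1, with the others up to 158.8 CPM. Among controls the highest was shLuc replicate 4, above every shDis3 library, with the others up to 126 CPM. The megakaryocyte markers were above 0 for 12 of 12 genes in shDis3 against shLuc, with a median log2 fold change of 0.96 and none called. The 11 granulocyte markers summed to 2127 to 4900 CPM in shDis3, 1344 to 2107 CPM in shExosc10 and 1094 to 4268 CPM in shLuc libraries, where the highest was replicate 4. In that library Mpo alone made up 3629 CPM of the sum. Mpo, Elane, Prtn3, Ctsg, Ms4a3 and Cebpe were highest there among shLuc libraries, while S100a8, S100a9, Ltf, Ngp and Camp were lowest there. The 10 mast cell and basophil markers, 6 of them past the filter, summed to 23.7 to 93.9 CPM in shDis3, 9.45 to 118.4 CPM in shExosc10 and 11.3 to 121.9 CPM in shLuc libraries. Here too shExosc10 replicate 1 and shLuc replicate 4 were highest, with the others of these groups up to 12.6 and 21.7 CPM. In shDis3, replicates 1 and 2 stood at 23.9 and 23.7 CPM and replicates 3 and 4 at 72.1 and 93.9 CPM. Stem and early progenitor markers, 10 in all, summed to 117.5 to 240.7 CPM in shDis3, 71.1 to 152 CPM in shExosc10 and 84.4 to 343 CPM in shLuc libraries, again with replicate 4 highest. Gata2 alone had 52.8 to 222 CPM over the libraries. Of these 10 genes, 9 were above 0 in shDis3 against shLuc, with a median log2 fold change of 0.42 and none called. Summed lymphoid markers stayed at or below 8.54 CPM and summed hepatocyte markers at or below 32.6 CPM in all libraries. The 12 macrophage and monocyte markers, 5 of them past the filter, summed to 35.8 to 49.1 CPM in shDis3, 25.5 to 38 CPM in shExosc10 and 17.1 to 40.9 CPM in shLuc libraries, where replicate 4 was highest and the others stayed at or below 21.7 CPM. All 5 were above 0 in shDis3 against shLuc, with a median log2 fold change of 0.76 and none called. Of these, Csf1r, the receptor for a macrophage growth factor, had 6.11 to 18.8 CPM in shDis3, 2.80 to 13.6 CPM in shExosc10 and 3.19 to 18.7 CPM in shLuc libraries, while the tissue macrophage genes Marco, Vsig4 and Timd4 were at or near 0. The 10 endothelial and stromal markers, 4 of them past the filter, summed to 30 to 43.4 CPM in shDis3, 18.3 to 40.8 CPM in shExosc10 and 11.3 to 50.2 CPM in shLuc libraries, again with shLuc replicate 4 highest. Of the hepatocyte genes, Ttr and Serpina1a were at or near 0, while Apoa1 had 3.42 to 27.4 CPM and Trf 0.92 to 9.55 CPM over the libraries. The part of these markers in the member values was not tested.

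No gene of the other cell cycle lists was called by edgeR in any of the 3 comparisons. Of 36 symbols listed as other replication genes (such as Orc2 to Orc5, Cdc7 and Gmnn), 35 were found and all 35 were tested. They gave a median of -0.12 (log2 fold change) for shDis3 against shLuc, with 24 below 0, 0.06 in shExosc10 against shLuc and -0.11 in shDis3 against shExosc10. Within them Orc4 differed by -0.58 (SE 0.23) and Orc5 by -0.65 (SE 0.26) in shDis3 against shExosc10, the lowest fold changes of that list. Of the other origin recognition subunits, which were added after their values were seen, Orc1 differed by -0.13 (SE 0.19), Orc2 by -0.24 (SE 0.20) and Orc3 by -0.33 (SE 0.23). Ctc1, part of a complex that helps polymerase alpha fill in telomere ends, differed by 0.52 (SE 0.23) in that comparison. The 30 genes of G2 and mitosis had medians of -0.08, 0.03 and -0.20 in shDis3 against shLuc, shExosc10 against shLuc and shDis3 against shExosc10. The 17 other nucleotide supply genes had medians of 0.01, -0.04 and 0.04 in the same comparisons, the 12 other chromatin assembly genes -0.04, 0.07 and -0.10, and the 24 other G1/S regulators 0.01, -0.16 and 0.18. Single genes of these lists lay further from 0. Asf1a differed by 0.59 (SE 0.17) and E2f4 by -0.67 (SE 0.27) in shExosc10 against shLuc. Prc1, of the G2 and mitosis list, differed by -0.55 (SE 0.18) in shDis3 against shExosc10.

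**Figure D5:**
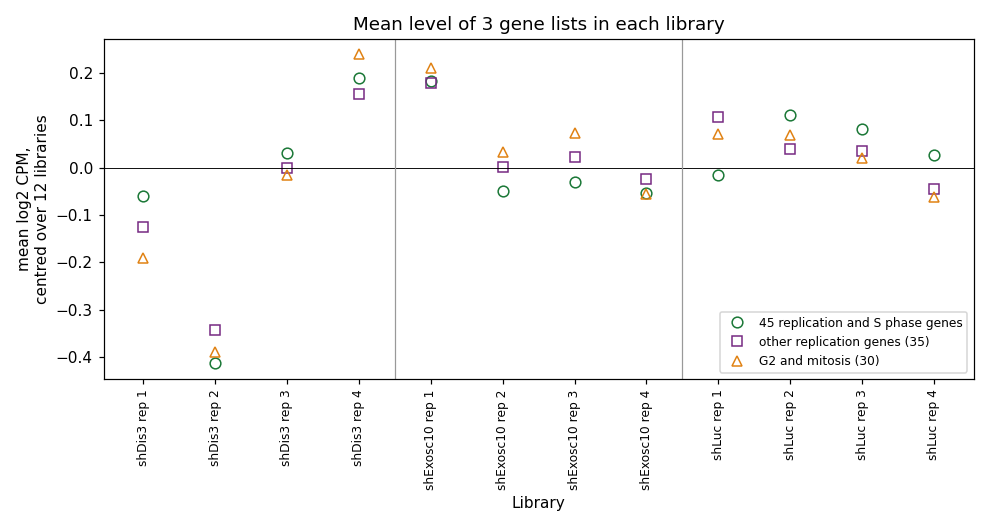
Mean log2 CPM per library, centred over 12 libraries, of the 45 genes (circles), 35 other replication genes (squares) and 30 genes of G2 and mitosis (triangles). All 3 lists are lowest in shDis3 replicate 2, where the 45 genes stand at -0.41, and high in shDis3 replicate 4 and shExosc10 replicate 1.

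Among 8 cell cycle inhibitors tested of 9 listed, the log2 fold changes in shDis3 against shLuc ran between -3.10 and 0.78. Cdkn1a, the inhibitor p21, had 127.9, 92.6, 41 and 53.6 CPM in shDis3 libraries, 22.1, 80.7, 71 and 48.8 CPM in shExosc10 libraries and 45.7, 54.2, 64.5 and 18.7 CPM in shLuc libraries. It was highest in shDis3 replicates 1 and 2 and lowest in shLuc replicate 4 and shExosc10 replicate 1, and differed by 0.78 (SE 0.44) in shDis3 against shLuc. Cdkn1c, the inhibitor p57, had 1.58, 1.73, 1.62 and 0.33 CPM in shDis3 libraries, 0.57, 5.10, 6.00 and 19.4 CPM in shExosc10 libraries and 10.03, 14.3, 19.8 and 1.14 CPM in shLuc libraries. Its low libraries were the 4 of shDis3 together with shExosc10 replicate 1 and shLuc replicate 4. The difference was -3.10 (SE 0.90) in shDis3 against shLuc, and it was not called (adjusted p = 1, edgeR).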

How the data were processed

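RNA from 12 libraries, 4 each for shDis3, shExosc10 and shLuc as the sample titles give them, was sequenced after Trizol extraction with a stranded total RNA kit for very low input, per the labels' protocols. STAR 2.5.3a, RSEM 1.3.0 and the mouse build GRCm38 (mm10) appear in the submitters' processing notes with no role stated. Which annotation, strand setting or filters went into the counting is not given in the sources used here. The authors deposited, per the file headers, an RSEM expected count per gene, an estimated count that need not be whole, and TPM, which is scaled to 1 total in each library; an effective length was not used. Of the gene counts, 4.5% were not whole, and they were rounded. Symbols and coordinates were matched to GENCODE M21 (GRCm38): of 55385 identifiers, 54487 matched with version and 55144 without.

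The rounded counts were tested with edgeR 4.0.16 (quasi-likelihood, TMM factors, default filter by group) in R 4.3.3, with group as the only term and all 12 libraries. The filter left 17650 genes. The common biological coefficient of variation was 60%, with 5.45 prior degrees of freedom. P-values were adjusted over all these genes by the Benjamini-Hochberg method, and 0.05 was the threshold. Levels between libraries are CPM on TMM-scaled library sizes, with a prior count of 0.5 on the log2 scale. Alternatives were DESeq2 1.42.0, limma 3.58.1 on log2(TPM + 1) and log2(TPM + 0.1), other size factors, no filter, 2 groups alone, a replicate block, each library left out, 3 libraries left out and the cluster of libraries as a factor. The closing section gives their effect. Totals of 14936200 to 32397204 counts set the depth. Among 66 pairs of libraries, chi-square divided by its degrees of freedom was at least 10.7, so none was taken as the same library deposited again. The labels do not say whether the replicate numbers pair the samples, and correlations of same-numbered deviations ran between -0.51 and 0.80. For replicate 2 they were 0.47, 0.80 and 0.44, while replicates 3 and 4 held negative ones. The 45 members, the role lists, the other lists and the rules were chosen with earlier results of these data known. Members are given library by library when called, or when among the 3 largest or 3 smallest fold changes of a comparison. They are given when among the 3 highest or lowest in TPM in shLuc, among the 3 widest or steadiest, or highest of their role. Apart from Orc2 and Orc3, genes of the other cell cycle lists have values only when among the 2 largest or 2 smallest fold changes of their list. Not every such gene is given.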

Additional observations from a re-analysis of the deposited data

Results flagged for a closer look

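In 138 groups of 4 libraries, the 45 genes and their mean were searched for a library far from the other 3 of its own group, and 18 were found. Chance alone gives about 1 in 20 independent groups, but these genes share the same 12 libraries, so 1 shifted library counts again for each gene. How often the rule flags other genes was not computed, so the number found is not read as an excess. shExosc10 replicate 1 was the highest of its group in 9 of them. It had 37.21 CPM for Orc1, where the others reached 31.76, 119.7 CPM for Cdc6 (others up to 98.14), 324.3 CPM for Mcm5 (others up to 238.4) and 58.08 CPM for Gins4 (others up to 46.97). It also had 166.4 CPM for Rfc1 (others up to 127.1), 107.3 CPM for Rfc2 (others up to 61.18), 30.24 CPM for Rfc3 (others up to 23.04) and 90.74 CPM for Rpa2 (others up to 56.28). Its mean log2 CPM over the 45 genes, centred over 12 libraries, was 0.183, against -0.053 to -0.03 in the other shExosc10 libraries. shDis3 replicate 4 was far above its group with 143.8 CPM for Pola1, 103.8 CPM for Prim1 and 387.8 CPM for Pcna, where the others reached 102.5, 62.15 and 270.3 CPM. shDis3 replicate 2 was far below it for Rpa1, with 134.3 CPM against 174.7 to 182.5 CPM. In shLuc, replicate 4 was high for Mcm10 with 166.4 CPM (others up to 125.9) and for Rfc2 with 93.92 CPM (others up to 67.34), and replicate 1 was low for Mcm7 with 282.3 CPM (others from 339.3). In shExosc10, replicate 4 was high for Gins2 with 35.96 CPM (others up to 33.66), and replicate 2 was low for Rfc4 with 69.14 CPM (others from 82.14).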

How the results depend on the processing

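Of all settings tried, members were called in 1, which left out shLuc replicate 4, shDis3 replicate 4 and shExosc10 replicate 1 together: 2 in shDis3 against shLuc and 1 in shDis3 against shExosc10. Leaving out 1 library at a time called 0 members in each comparison. The number of genes called over the whole table moved more, and the cause was not tested. In shDis3 against shLuc, 0 genes became 33 with DESeq2, 1 with RLE size factors, 123 without the filter, 772 without the 3 libraries, 1 with the clusters as a factor and 0 to 146 when each library was left out, with 146 without shLuc replicate 4. In shExosc10 against shLuc, 1 gene became 8 with DESeq2, 10 without the filter, 0 with limma at either pseudocount, 3 without the 3 libraries and 0 to 2 when each library was left out. In shDis3 against shExosc10, 2 genes became 79 with DESeq2, 179 without the filter, 0 with limma at either pseudocount, 1 with only these groups, 617 without the 3 libraries and 1 to 2 when each library was left out. Whether the replicate numbers pair the samples is not known. With the number as a replicate block, 0 members and 1 gene were called in shDis3 against shExosc10, and no member was called in the other comparisons. The member median in shDis3 against shLuc was 0.1407 and 0.1443 with limma at the 2 pseudocounts, where the all-gene medians were 0.11 and 0.17, -0.21 with the clusters as a factor (1 of 45 above 0), -0.15 without the 3 libraries and -0.17 to 0.03 when each library was left out. In the other comparisons that range was -0.10 to 0.03 for shExosc10 against shLuc and -0.20 to 0.08 for shDis3 against shExosc10. In the fit with the clusters as a factor, shLuc replicate 1 stood alone as a cluster and did not enter the group differences. In shDis3 against shLuc, Mcm3 turned to -0.19, Rfc2 to -0.0934 and Rpa2 to -0.0711 with the clusters as a factor, and Rpa2 to -0.13 without the 3 libraries. Without shDis3 replicate 4 they were -0.0223, -0.0018 and -0.12, the lowest values over single libraries left out, with 0.30, 0.39 and 0.28 as the highest. For the single genes named, 368 values under other settings kept direction and side of the threshold, 7 changed sign and 3 passed the threshold. The lowest count of any member in a library was 214.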
